A study of Mus musculus with 6 samples.

Results

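Dppa2, Dppa3, Dppa4, Dppa5a, Utf1, Fbxo15, Tcl1, L1td1 and Gdf3 are genes known for strong expression in mouse embryonic stem (ES) cells and in the germ line or early embryo. They were taken from the deposited table by gene symbol. Of the 9 listed symbols, 8 matched a row among 18312 genes, and Fbxo15 was not analysed here. The study asked which messenger RNAs are bound by Brf1 (gene Zfp36l1) and Brf2 (gene Zfp36l2), proteins that bind AU-rich sequence and promote mRNA decay. Its 6 libraries came from wild-type cells of the E14 ES line on the 129/Ola background, cultured with fetal bovine serum and the cytokine LIF. There were 3 groups of 2 libraries, namely total RNA without antibody, complexes precipitated with an anti-Brf1/2 antibody and a control precipitated with rabbit IgG.

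No column of the table names a library, so its values cannot be placed in any of the 3 groups. The members therefore have 1 value each, with no replicates, no spread between samples and no comparison between total RNA, Brf precipitate and IgG. The depth was 22625281 counts. All intervals cover counting error only. A level here measures neither binding nor enrichment, and a single profile cannot show that a gene is restricted to ES cells. In a bulk sample, fewer cells expressing a gene and less RNA per cell cannot be told apart.

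The name Dppa stands for developmental pluripotency associated, a set of genes recognised because their expression resembles that of the pluripotency factor Pou5f1. The genes are related by expression and mostly not by protein sequence. Dppa2 and Dppa4 are SAP domain proteins that bind chromatin as a pair, Dppa3 (Stella) protects the early embryo's DNA methylation, and Dppa5a is a small KH domain RNA-binding protein. Utf1 is a chromatin protein, Tcl1 a co-activator of the kinase Akt, L1td1 an RNA-binding protein derived from a LINE-1 retrotransposon, and Gdf3 a secreted ligand of the TGF-beta family. Many of them are widely used as markers of the undifferentiated state.

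All 8 genes had counts, from 331 for Tcl1 to 25493 for L1td1. Of the 8, 7 had at least 1 FPKM (fragments per kilobase of effective length, scaled to the total count), as did 56.0% of all genes in the table. The exception was Dppa5a, although only L1td1 had more counts. At a stricter limit of 5 FPKM it was again 7, against 38.3% of genes. All 8 had at least 10 counts, which 70.6% of genes did. The members' median was 34.5 FPKM, against 1.94 over all genes and 4.60 over the 14468 genes with a count. Together the 8 genes held 57420 counts, or 0.254% of the total, and L1td1 and Dppa5a held 82.5% of those.

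The effective length, the authors' corrected length for each transcript model, decides where Dppa5a stands. Dppa5a was listed at 0.683 FPKM (deposited bounds 0.674 to 0.692), rank 10793. Its 21876 counts ranked 107th, at 0.0967% of the total (Wilson 95% interval 0.0954 to 0.0980). Its model is 639 nt long, while its effective length is 1415960. The ratio of the lengths was 2216, the highest of any gene. The next was 7.55, for 1700020L24Rik with 4 counts, and among genes with at least 100 counts it was 5.24, for Atpif1. Among 345 other models within 10% of its length, the ratio ran from 0.387 to 2.82 around a median of 1.08.

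On the model length, which divides the same count by 639 nt, Dppa5a had 1513 FPKM (Wilson 95% interval 1493 to 1533). It then ranked 34th of all genes and first among the 8, all of which had at least 1 FPKM on this scale (58.2% of all genes did). That value was 1.65 times the level of Pou5f1 on the same scale (95% interval 1.62 to 1.68). With the table's median ratio of effective to model length, 1.27, the level would be 1192 FPKM, and with its 5th and 95th percentiles 2364 and 781. With the median ratio of the 345 models of similar length, 1.08, it would be 1399 FPKM. The reason for the deposited effective length was not tested. The other 7 genes had ratios between 0.975 and 1.79, within the table's 5th to 95th percentiles (0.640 to 1.94).

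**Figure D1:**
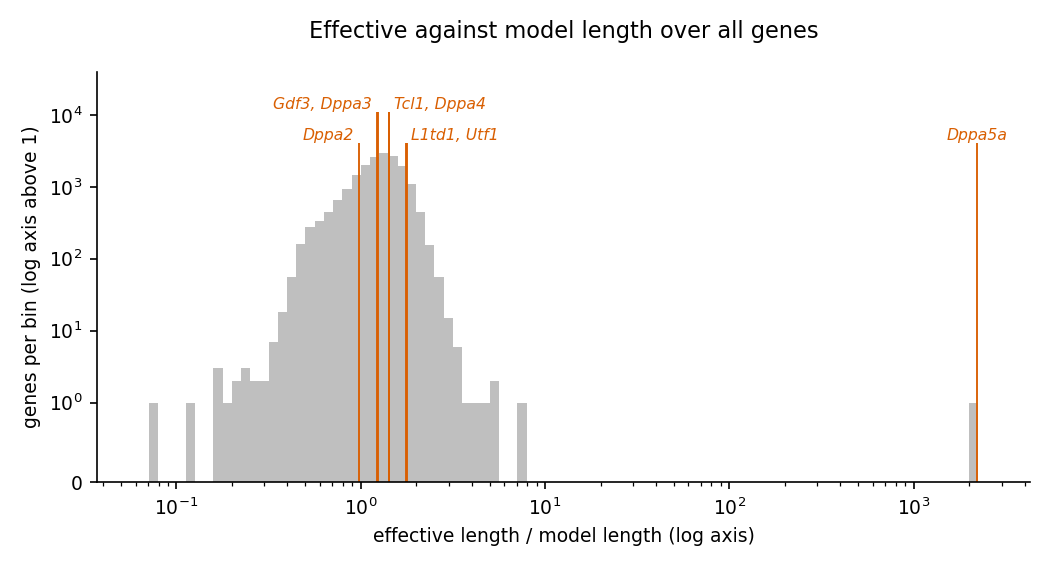
Histogram of effective over model length for all 18312 genes (both axes logarithmic, the vertical one above 1), with lines at the 8 genes. The ratios of 7 lie between 0.975 and 1.79, while Dppa5a lies at 2216.

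L1td1 had 216.9 FPKM (214 to 220), rank 241, and 383 FPKM (378 to 388) on the model length. With 25493 counts it ranked 82nd by count and was measured with the narrowest relative error of the set. Its 2942 nt model is as long as the annotated GENCODE transcript.

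Utf1 came next at 75.2 FPKM (72.6 to 77.7, 3528 counts), and 134 (130 to 139) on the model length. Dppa4 had 53.9 FPKM (51.7 to 56.1, 2402 counts) and Dppa2 had 45.4 (43.3 to 47.5, 1943 counts). Of the chromatin pair, Dppa4 was the higher on both scales. On the effective length the ratio of Dppa4 to Dppa2 was 1.19 (95% interval 1.12 to 1.26), and on the model length it was 1.74 (1.64 to 1.85), from 77.0 and 44.2 FPKM. Dppa2 was the only gene of the 8 with an effective length below its model length.

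Gdf3 had 23.5 FPKM (22.2 to 24.8, 1367 counts) and Dppa3 had 20.9 (19.0 to 22.8, 480 counts). Their intervals overlapped on both scales, and the ratio of Gdf3 to Dppa3 was 1.105 on the model length (95% interval 0.995 to 1.23), from 28.6 and 25.9 FPKM. With effective lengths the ratio was 1.12 (1.01 to 1.25), so the counting interval excluded 1 on that scale and not on the other. Tcl1 was the lowest of the 7, at 7.40 FPKM (6.58 to 8.21, 331 counts), or 10.5 on the model length. Every other pair of neighbours in the order had intervals that did not overlap, on either scale. L1td1 exceeded Tcl1 by 36.5-fold on the model length (32.7 to 40.8). The order of these 7 genes was the same on both scales, and only the place of Dppa5a changed, from last to first.

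**Figure D2:**
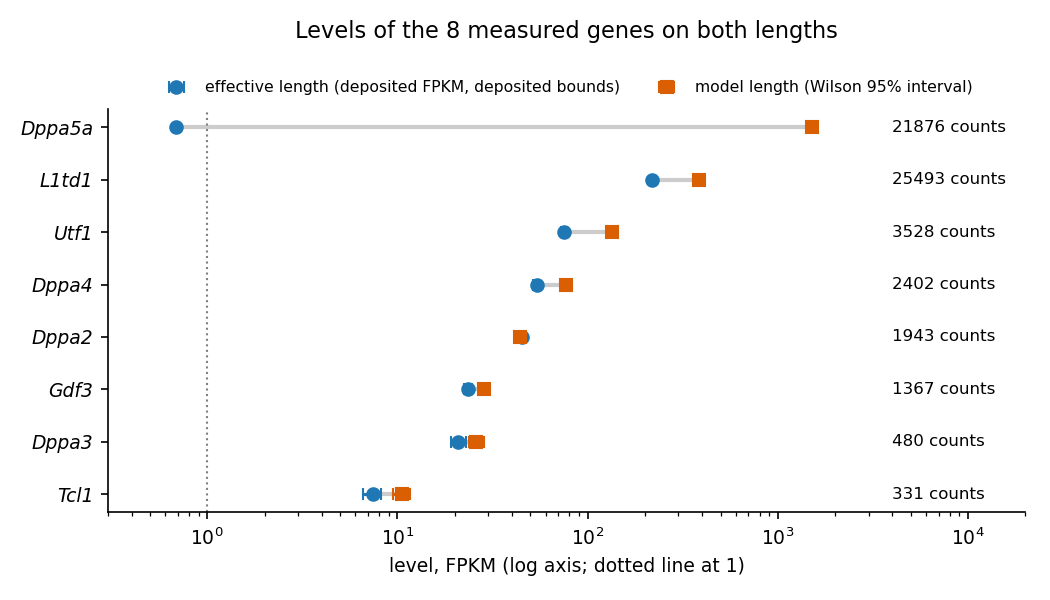
Level of each gene in FPKM (log axis) on the effective length (circles, deposited bounds) and the model length (squares, Wilson 95% intervals), with its count at the right. All 8 lie above 10 FPKM on the model length, and Dppa5a moves from 0.683 to 1513.

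Proteins of the Zfp36 family bind UAUUUAU and related sequences in 3′ untranslated regions, so the annotated regions of the 8 genes were searched. None of the 8 holds TATTTAT (the DNA letters, on the transcript strand) in its longest annotated region, where 29.5% of 16288 genes in the table do. The members' regions are short, with a median of 434.5 nt against 1062.5 over those genes. They run from 122 nt for Utf1 to 1012 nt for Dppa2. Among all genes with a region of 1012 nt or less, 12.0% hold the heptamer. The longer TTATTTATT, which contains the heptamer and so cannot occur in the 8, is in 8.15% of genes. AT content was similar, with a median of 55.9% against 56.3%, and ran from 47.6% for Tcl1 to 62.2% for Dppa3. A heptamer missing from these letters says nothing about whether either protein binds.

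The shorter core ATTTA, which lies inside every TATTTAT, is present in 5 of the 8, compared with 67.7% of genes. Dppa4, Dppa5a and Utf1 have none. The regions of those genes have a longer median than the members' regions, and the ATTTA share among short regions was not computed. The sites are shown because this pentamer is the core of the heptamer searched, with ATTTA in capitals and the surrounding transcript in lower case, 5′ to 3′.
Dppa2: tgaatacagtgtATTTAccagtgt
Dppa3: acaacgatccagATTTAtgtgaagtttaga
L1td1: cattgctttattATTTActattacatatta
Tcl1 upstream site: ttcaggttctgtATTTAgtgtaaacacgtc
Tcl1 downstream site: agatacggctggATTTAataaagctttgta
Gdf3 upstream site: taacatagaaaaATTTAcgtgagctttaaa
Gdf3 downstream site: ttttcttaataaATTTActtcaactgaatt
The sequences come from GENCODE M21 transcripts, and the positions of the 5 letters are on GRCm38, not on the mm9 build of the table. The Dppa2 site is at chr16:48319712-48319716 on the plus strand and ends 7 nt before the transcript does. The Dppa3 site is at chr6:122630154-122630158 (plus), 149 nt after the stop codon. The L1td1 site is at chr4:98738440-98738444 (plus), 36 nt before the transcript's end. The Tcl1 sites are at chr12:105217002-105217006 and chr12:105216777-105216781 (minus), 706 and 931 nt after the stop codon. The Gdf3 sites are at chr6:122605774-122605778 and chr6:122605421-122605425 (minus), 528 and 881 nt after it. All 7 lie in 3′ untranslated exon sequence of their genes.

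The Dppa genes also share long stretches with pseudogenes, which bears on how reads could be assigned. For Dppa5a, 52.2% of the 36-base windows of its transcript also occur in a transcript of another gene. The share was 42.6% for Dppa4, 40.7% for Dppa2 and 27.9% for Dppa3. It was 4.95% for L1td1, 3.06% for Gdf3, and 0% for Tcl1 and Utf1. The read length is not given in the sources used here. With windows of 25 and 50 bases, the share for Dppa5a was 62.0% and 38.6%, and in all 3 window sizes the 4 Dppa genes were above the other 4.

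For Dppa2 the closest copy is Gm9788, with 716 of its 1913 windows, and for Dppa4 it is Gm14058, with 427 of 1444. Dppa3 shares 219 of 798 with Dppa3-ps. Dppa5a shares its windows with 9 genes that hold at least 20 of them, 7 of them annotated as pseudogenes, including Dppa5b and Dppa5c with 96 of 584 each. One of the 9 is a row of the table, Pigp, an enzyme subunit of GPI anchor synthesis, which had 14.8 FPKM (181 counts) and shares 113 windows. None of the named copies of Dppa2, Dppa3 and Dppa4 is a row. The table's unique count never differs from its total count. The counts of the 4 Dppa genes are uncertain to the extent that reads from copies were assigned to them or lost. In GENCODE M21, no exon of the 8 genes overlaps an annotated exon of a gene outside the 8, on either strand. In that annotation, missing strand information does not mix them with such a gene. Overlap among the 8 themselves, and in the mm9 models of the table, was not checked.

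**Figure D3:**
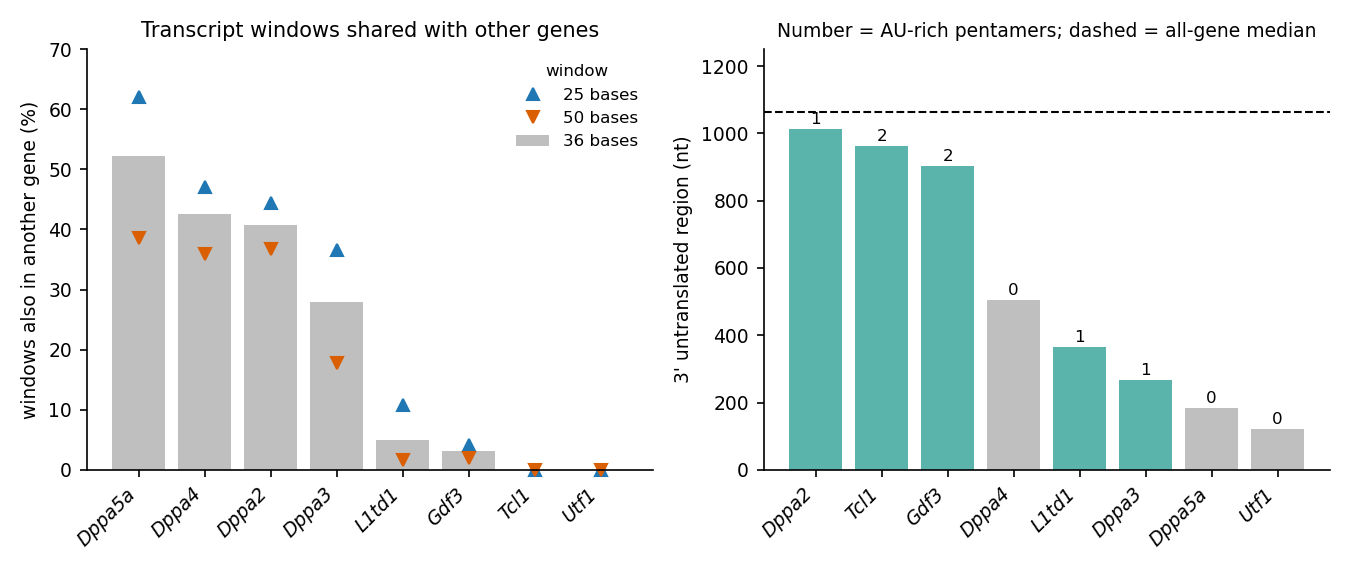
Left, percentage of 36-base transcript windows also found in another gene (bars), with 25 and 50 bases as triangles. Right, length in nt of the longest 3′ untranslated region with the number of ATTTA pentamers above each bar, and the median over all genes (1062.5 nt) dashed. The 4 Dppa genes have the highest shared percentages, and all 8 regions are shorter than the median.

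Levels of cell type markers were read from 6 lists. Because no library is named, the values may come from precipitated RNA, so they do not establish the state of the cells. Over all genes, 56.0% had at least 1 FPKM. All 6 markers of undifferentiated ES cells had at least 1 FPKM, from 13.9 for Klf4 to 605 for Pou5f1, with a summed level of 1185. Of 5 measured primitive endoderm markers 1 did (Dab2 at 3.05, summed level 4.27), with Gata4 at 0.451 and Sox17 at 0.0562. Of 6 trophoblast markers 4 did, none above the 2.68 of Eomes, and Elf5 was lowest at 0.0561. Of 4 fibroblast markers only Thy1 did, at 3.74, while Col1a1 had 0.902 and Dcn was lowest at 0.253. All 4 markers of primed epiblast did, from 3.83 for Fgf5 to 106 for Dnmt3b. The summed levels were 7.38 FPKM for trophoblast, 5.44 for fibroblast and 141 for primed epiblast, and no measured marker of any list was at 0 counts. The part of these other cell types in the levels of the 8 genes was not tested.

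Genes linked to each member by earlier knowledge were listed as partners. Every list count and median below is to be read beside all genes, of which 56.0% reached 1 FPKM, with a median of 1.94. Dppa2 and Dppa4 are known as upstream activators of genes of the 2-cell embryo. Of 8 measured 2-cell-stage genes, 4 reached 1 FPKM, and the list's median was 1.76, both near the values over all genes. Zscan4f was highest at 5.28 (228 counts), Zscan4c had 5.28 (247 counts) and Tdpoz1 was lowest at 0.252 (12 counts). The Zscan4 copies are near-identical, so their counts are uncertain to the extent that reads common to them were misassigned or lost. Every one of the 8 was below both Dppa2 and Dppa4, on the effective and on the model length.

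Dppa3 acts on DNA methylation, and all 11 measured genes of that list reached 1 FPKM (median 38.4). The co-repressor Trim28 was highest at 251 FPKM. Dnmt3l, the cofactor of the de novo methyltransferases, had 73.4 and the maintenance enzyme Dnmt1 43.1. The oxidase Tet1 had 31.1, and Tet3 was lowest at 2.04. Dppa3 itself, at 20.9, was above Dnmt3a (18.3), Tet2 and Tet3 and below the other 8. With model lengths it was again above Dnmt3a (24.7), at 25.9, though the interval of Dppa3 (23.7 to 28.4) includes the value of Dnmt3a.

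Dppa5a belongs to a family of KH domain genes, several of which serve in the egg's subcortical maternal complex. Of 7 measured relatives and complex members, 2 had at least 1 FPKM. Ooep, its measured neighbour on chromosome 9, had 22.3 FPKM (20.6 to 24.0, 678 counts), and Tle6 had 1.01. Khdc1a, Khdc1b, Khdc1c and Padi6 had 0 counts, where the limit of 3 counts corresponds to 0.0712, 0.0571, 0.151 and 0.0358 FPKM. On the model length Dppa5a was 60.9-fold above Ooep (56.5 to 65.9), and on the effective length it was below.

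Utf1 is known to limit Polycomb loading and to bring the decapping factor Dcp1a to transcripts of poised genes. All 9 measured genes of that list reached 1 FPKM (median 67.4), with Pou5f1 the highest at 605. The Polycomb subunits Eed, Suz12 and Ezh2 had 88.8, 86.5 and 67.4 FPKM, Dcp1a 10.7 and Dcp1b, the lowest, 1.38. Utf1, at 75.2, lay within the range of the Polycomb subunits on the effective length. Divided by model length, it had 134 and Eed 129.9, with overlapping intervals (130 to 139 and 127 to 133). Sox2, which with Pou5f1 activates the Utf1 enhancer, had 179 FPKM.

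Tcl1 was the only gene of its chromosome 12 family with more than 2 counts. Tcl1b1, Tcl1b3 and Tcl1b5 had 0 counts, for which 3 counts allow 0.132, 0.148 and 0.144 FPKM. Tcl1b2 had 1 count and Tcl1b4 had 2. Of the whole list of 15 Tcl1 family and Akt pathway genes, 10 reached 1 FPKM (median 7.97). The kinases Akt2 and Akt1 had 15.0 and 11.8 FPKM, both above Tcl1. The ES cell Ras protein Eras had 19.7, and was likewise above Tcl1 on the model length, at 27.6 against 10.5.

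L1td1 is found in ribonucleoproteins with Lin28 in pluripotent cells. All 9 listed partners and associated genes reached 1 FPKM (median 74.4), from Trim71 at 14.8 to the poly(A)-binding protein Pabpc1 at 562. L1td1 was above Lin28a, the let-7 repressor, by 1.17-fold on the effective length (1.14 to 1.19) and by 1.84-fold on the model length (1.81 to 1.88). Its relative Lin28b had 28.6 FPKM.

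Gdf3 is a Nodal-like ligand that acts through activin receptors with the co-receptor Tdgf1. Of 14 measured genes of this pathway, 11 reached 1 FPKM (median 5.68). Tdgf1 was highest at 466 FPKM, the antagonists Lefty1 and Lefty2 had 87.9 and 61.0, and the transcription factor Foxh1 had 32.2. Nodal had 22.0, and the ratio of Gdf3 to Nodal was 1.07 on the effective length (0.992 to 1.15) and 0.896 on the model length (0.833 to 0.965). Gdf3 was thus below Nodal on the model length, while the interval on the effective length included 1. The receptors were lower, with Acvr1b at 7.26, Acvr2a at 5.68, Acvr2b at 4.47 and Acvr1c, the lowest of the list, at 0.209. None of the 9 other Gdf ligands in the table reached 1 FPKM, and 4 of them had 0 counts. With model lengths 2 did, the higher being Gdf1 at 1.45. Gdf1 shares a bicistronic transcript with Cers1, so its value is uncertain.

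For the SCF ubiquitin ligase, in which Fbxo15 is a substrate adaptor, all 9 measured genes reached 1 FPKM (median 56.6). They ran from 10.5 for the adaptor Fbxw7 to 336 for the core subunit Skp1a.

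**Figure D4:**
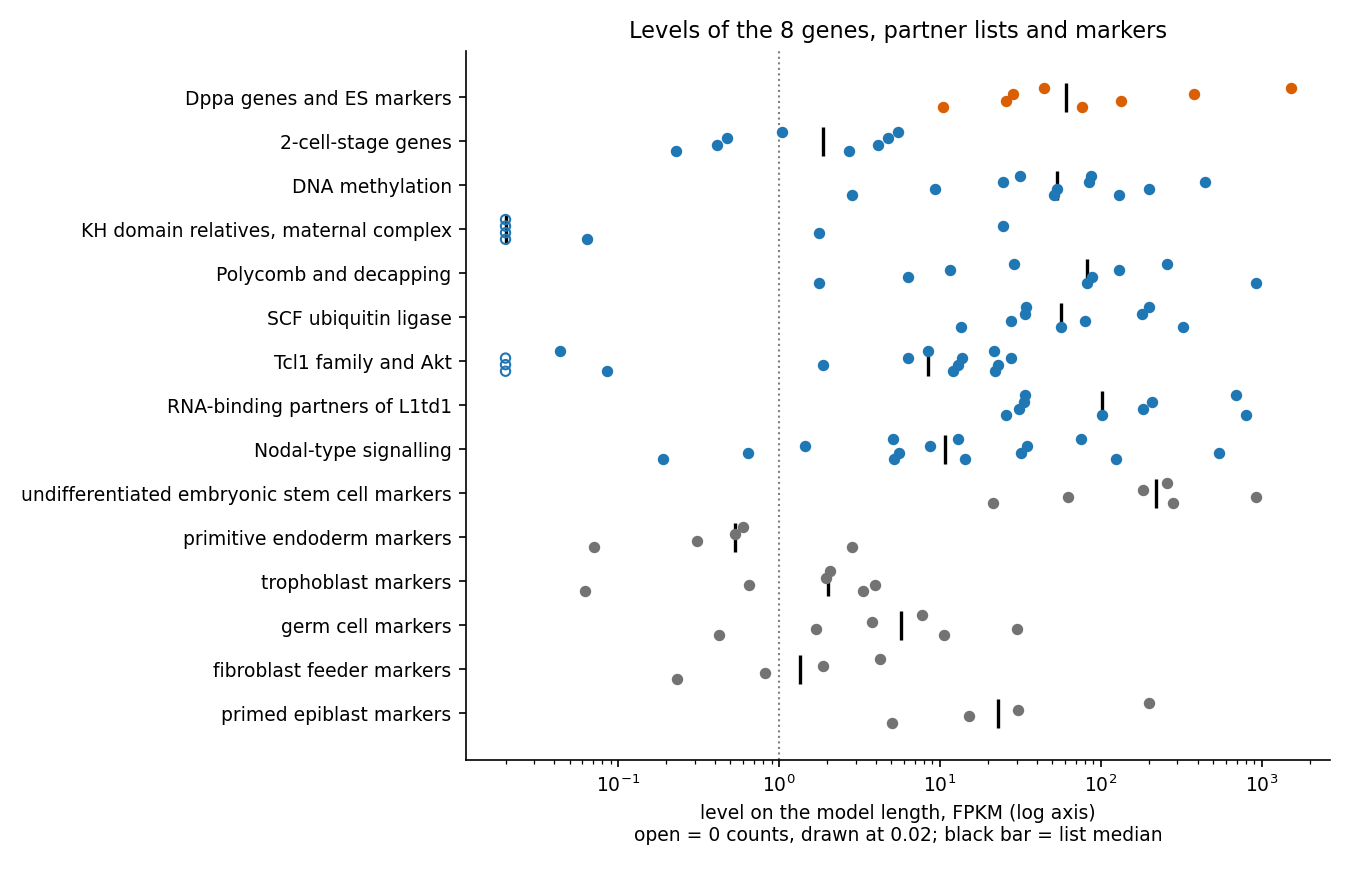
Level on the model length in FPKM (log axis) of each measured gene, with the 8 genes in orange, partner lists in blue and cell type markers in grey. Black bars are list medians, and open circles are genes with 0 counts. The 8 genes run from 10.5 to 1513, above every primitive endoderm and fibroblast marker. Germ cell and primed epiblast markers reach into that range, up to 30.3 for Sycp3 and 199 for Dnmt3b.

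Gdf3 and Dppa3 lie next to each other on chromosome 6, followed by Nanog and the glucose transporter gene Slc2a3. From Apobec1 to Slc2a3 the levels on the model length were 5.40, 28.6, 25.9, 183 and 487 FPKM. Nanog was 7.04-fold above Dppa3 (6.43 to 7.74) and 6.38-fold above Gdf3 (6.02 to 6.76) on that scale. Dppa4 and Dppa2 are adjacent on chromosome 16 and are followed by Morc1, a germ line gene, at 11.3 FPKM, then by Trat1 with 0 counts.

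The other 4 genes lie apart from each other. Utf1 stood between Kndc1 at 0.711 and Adam8 at 0.788 FPKM, and L1td1 between Tm2d1 at 23.8 and Kank4 at 0.396. Tcl1 had Tcl1b4 on one side and D430019H16Rik, at 0.550, on the other. Dppa5a stood between Gsta2, with 1 count, and Ooep. Over the 24 different measured coding genes that lie within 2 positions of a member and are not members, 10 reached 1 FPKM, against 56.0% of all genes, and the median was 0.782 FPKM, against 1.94. The model length gave 13 of the 24, against 58.2% of all genes, and a median of 1.17 against 2.58, with Nkx6-2, Kndc1 and Adam8 crossing the limit. The neighbours were ordered by the RefSeq annotation of GRCm38.p6. Coding genes whose symbol there matches no row of the table were skipped, so a named neighbour need not be the nearest gene.

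**Figure D5:**
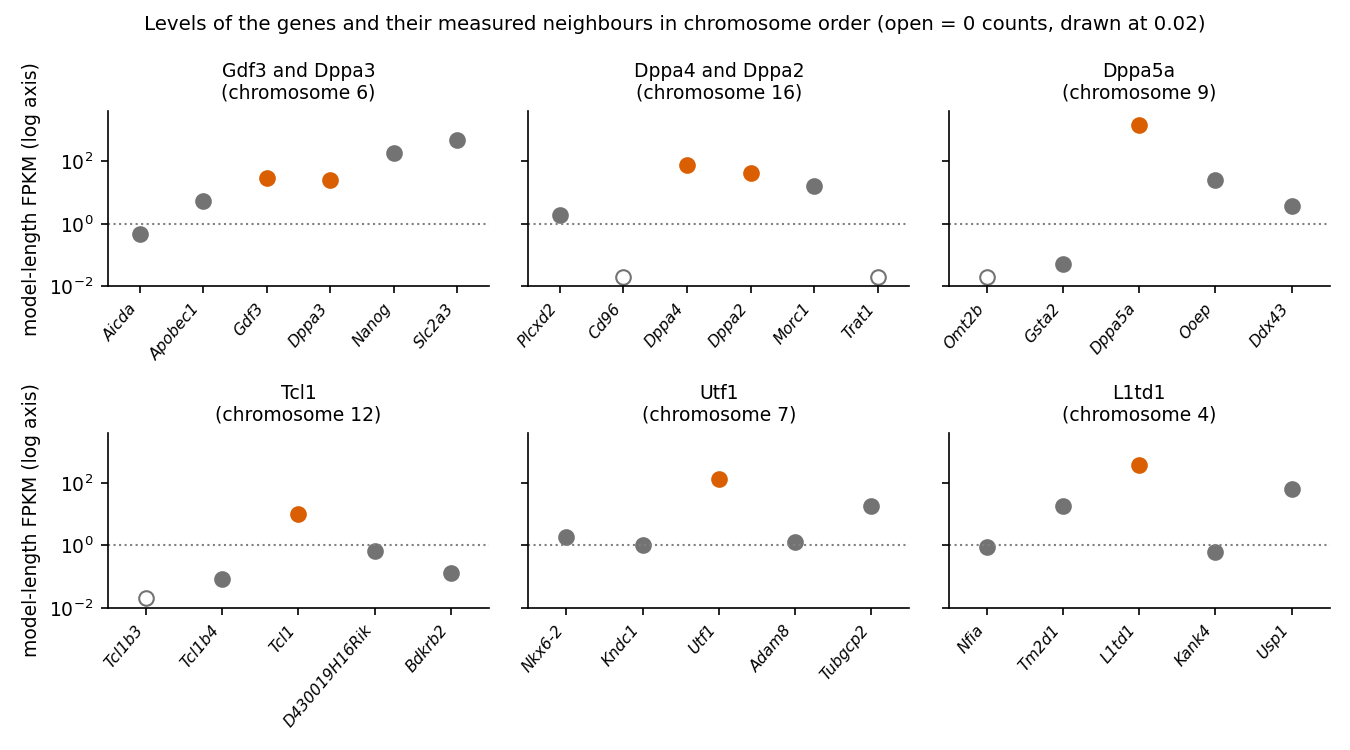
Level on the model length in FPKM (log axis) of the 8 genes (orange) and the 2 nearest measured coding genes on each side (grey) in chromosome order, with open circles for 0 counts. Levels run from 25.9 to 487 across Gdf3, Dppa3, Nanog and Slc2a3, and fall to 0 counts on both sides of the Dppa4, Dppa2 and Morc1 block.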

How the data were processed

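One table for the series was analysed. Per the submitters' processing notes, the tools were eXpress 1.1.1, Bowtie 1.1.2 and CASAVA 1.8.2 and the build mm9, with no role given. Per the file headers, the authors gave read counts (total and unique), estimated counts, effective counts, and FPKM with bounds. Estimated counts, which equal total counts in every row, were not rounded. Recomputed FPKM (count over effective length and total) matched the deposited values, and the deposited bounds lie 2 Poisson standard errors away. A row naming no gene holds 22625281, the total of the 18312 gene rows, and was left out.

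Levels on the model length, Wilson 95% intervals on counts and exact (Clopper-Pearson) 95% intervals on ratios of 2 counts were computed here. No column could be given a library, so no test between groups was run and no count model was used. The edgeR comparison of Brf precipitate with IgG that was planned was not run. The members, the 8 partner lists and 6 marker lists were chosen with earlier results of these data known. Named genes are the members and each list's highest and lowest measured genes. Some results of the Akt pathway list are not reported here. The other list genes, neighbours and copies were named after their values were seen. List symbols without a row in the table were not analysed here.

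The 3′ untranslated regions (at least 50 nt) and shared windows (both strands) came from GENCODE M21, on GRCm38, by symbol, with 16288 of 18312 genes matched (88.9%). Alternatives were the model length, a threshold of 5 FPKM, a minimum of 10 counts, a total without the 100 genes with the most counts, effective counts, another region and another motif. The functions were tested on simulated data. Calculations ran in scipy 1.17.1, pandas 2.3.3 and numpy 2.4.6 under Python 3.11.15, and plots in matplotlib 3.10.9.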

Additional observations from a re-analysis of the deposited data

How the results depend on the processing

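No paired analysis was possible because no column names a library or a replicate, and leaving out replicates was not possible for the same reason. The number of members at or above the limit was 8 on the model length, 7 at 5 FPKM and 8 at a minimum of 10 counts, where 58.2%, 38.3% and 70.6% of all genes passed. The members' median went from 34.5 to 60.6 FPKM on the model length and to 43.1 without the 100 genes with the most counts, which held 19.97% of the total. Leaving those genes out of the total scales every gene's level by the same factor. With effective counts the members' median was 34.5 again. That result was fixed in advance, because effective counts over the model length give the deposited FPKM. No member holds TATTTAT in the region of the transcript nearest in length to its model either (24.6% of genes do), and 5 hold ATTTA. At 5 FPKM the counts were 2 for 2-cell-stage genes, 1 for KH domain relatives, 0 for primitive endoderm, 0 for trophoblast, 3 for germ cell and 0 for fibroblast markers. On the model length 2 fibroblast markers passed. The other list counts stayed within 1.5 times under both settings. The median ratios applied to Dppa5a were added after the data were seen. Depth limits Tcl1 and Dppa3 most, with 331 and 480 counts.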

Other observations

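Several of the 8 genes are also known from germ cells, and germ cell markers were present in the table. Of 6 listed, 5 reached 1 FPKM, against 56.0% of all genes. The list's median was 6.13, against 1.94 over all genes, and its summed level was 61.6. The synaptonemal complex gene Sycp3 had 36.95 FPKM (34.3 to 39.6, 769 counts), above Gdf3 and Dppa3. On the model length its interval (28.2 to 32.5) overlapped those of both. The RNA helicase Ddx4 had 9.40, Mael 8.93, Prdm1 3.34 and Dazl 2.72. Stra8, which marks entry into meiosis, was lowest at 0.275 (14 counts). Ddx43, 2 measured coding genes from Dppa5a, had 3.21 FPKM. Dppa1, the remaining Dppa gene in the table, had 0 counts, for which 3 counts allow 0.0654 FPKM.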
